A study of Homo sapiens with 4 samples.

Results

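ABC genes encode the ATP-binding cassette family, here every gene whose symbol begins with ABC, a letter from A to G and a digit. The authors' deposited table holds 21 such genes among its 8727, namely 15 transporter genes, 4 genes of the ABCE and ABCF subfamilies, whose proteins have no membrane domain, and 2 pseudogenes. The family has 45 coding genes under such symbols, so 26 of them lie outside the table. The table comes from polyadenylated RNA of HepG2, a human liver cancer line that the labels call hepatoblastoma. The groups are 2 libraries of cells given 20 µM isoginkgetin, a biflavonoid from plants that is known to block pre-mRNA splicing, for 24 h, and 2 libraries of cells given the solvent DMSO. The table lists genes with an adjusted p under 0.05 between these groups, each with a mean normalized count over all libraries, a log2 fold change, its standard error (SE) and p-values. Values per library and total counts are not analysed here, and no label tells whether the replicates were separate cultures, so the p-values reflect spread among libraries that may be technical. Fold changes are read as isoginkgetin over DMSO; no header names the order, and if it were the other way round every direction would turn.

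ABC transporters use ATP to move substrates across membranes. In liver cells, members at the bile-facing membrane export bile salts, phospholipid, sterols and conjugated drugs, members at the blood-facing membrane return conjugates to blood, and others serve peroxisomes, mitochondria and lysosomes. The ABCE and ABCF proteins keep the paired ATP-binding domains but act on ribosomes and translation.

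The family divided by function. Of the 15 transporter genes in the authors' deposited table, 13 were lower and 2 higher in isoginkgetin-treated cells, while all 4 ABCE and ABCF genes were higher. Of the 45 coding members, 42.2% are in the table, beside 43.6% of the 20024 genes that the table's adjusted p-values imply were tested. Of the 41 listed transporter and channel genes, 4.88% were higher and 31.7% lower, against 22.4% higher and 21.1% lower over those tested genes. How many of the 26 absent members were tested is not known, so these shares are descriptions. The median log2 fold change was −0.78 for the 15 transporters and 0.63 for the 4 ABCE and ABCF genes, beside 0.21 for all genes of the authors' deposited table. Measured relative to that median of 0.21, the higher ABCC2 turned to −0.06 and the higher ABCA1 (0.03) and ABCE1 (0.05) lay within their error. No other member changed direction or lost its call. That median is of called genes only, none closer to 0 than 0.117, and is not an offset over all tested genes. Subtracting it lowers every small increase by construction, so these shifts are no test of the calls. Changes of 2-fold or more were seen in 6 of the 21 members, all lower, a share of 28.6% beside 31.4% of the whole authors' deposited table.

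**Figure D1:**
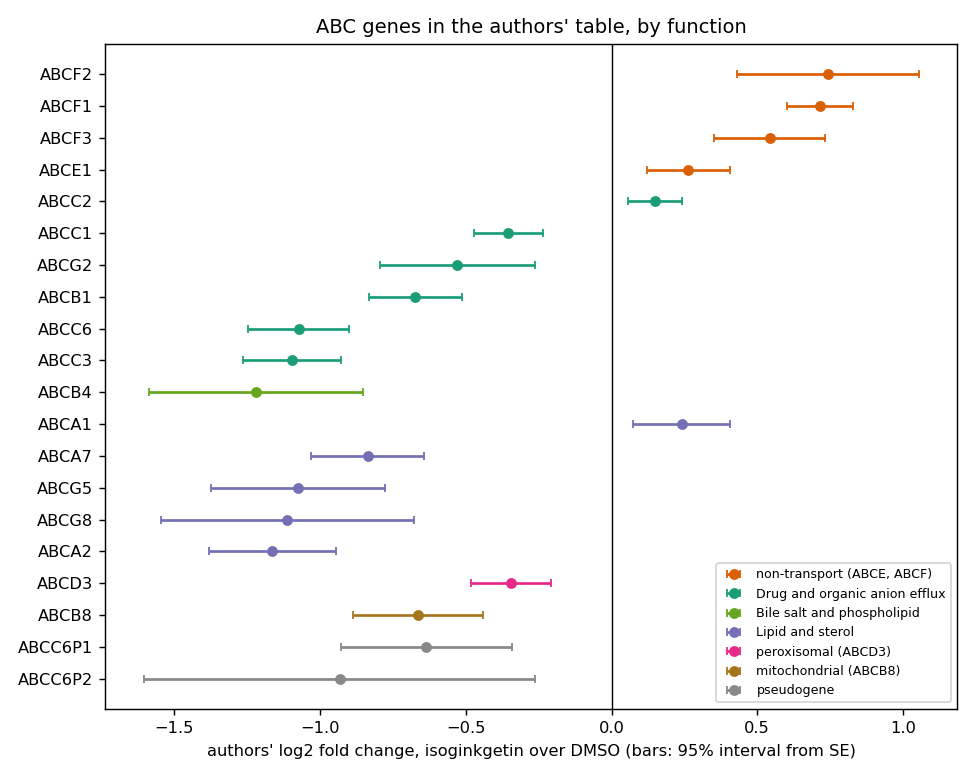
Log2 fold change, isoginkgetin over DMSO, of the ABC genes in the authors' deposited table (points, 1 of the 21 not plotted), with bars for the 95% interval from the SE, coloured by function. The ABCE and ABCF genes stand at the top between 0.26 and 0.74, and every transporter gene shown but ABCC2 and ABCA1 lies to the left of 0. Relative to the table's median, which is of called genes only, ABCC2 would also lie left of 0.

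Among drug and organic anion exporters, 5 were lower and 1 higher, and the other 6 of 12 listed genes, ABCB5, ABCC4, ABCC5, ABCC10, ABCC11 and ABCC12, are not in the authors' deposited table. ABCC3, which exports conjugates and bile salts to the blood side, had an implied level of 1212 normalized counts in isoginkgetin cells, against 2607 in DMSO cells. These group levels were computed from the mean normalized count and the fold change freed of shrinkage, and carry no spread of their own. The log2 fold change of ABCC3 was −1.10 (SE 0.09, adjusted p 1.03e-36) according to the authors' deposited table. ABCC6, a liver transporter needed for the release of ATP and known from the mineralization disease pseudoxanthoma elasticum, had implied levels of 995.2 in isoginkgetin cells and 2108 in DMSO cells. Its log2 fold change was −1.07 (SE 0.09, adjusted p 5.37e-33) according to the authors' deposited table, although its reads can be shared with pseudogenes described further on. ABCC3 and ABCC6 were thus the exporters with the lowest fold changes. Their ratios were 0.465 (95% interval 0.414 to 0.522) and 0.472 (0.419 to 0.532), so both intervals include 50% of the DMSO level.

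The best-known multidrug exporters were lower by less. ABCB1, the P-glycoprotein that confers multidrug resistance, was at −0.67 (SE 0.08) according to the authors' deposited table, with implied levels of 1442 normalized counts in isoginkgetin cells and 2314 in DMSO cells. ABCG2, an exporter of drugs and urate, was at −0.53 (SE 0.14) and ABCC1, an exporter of glutathione conjugates, at −0.35 (SE 0.06) according to the authors' deposited table. ABCC1 differed little in proportion at a high level, with implied levels of 4770 in isoginkgetin cells and 6111 in DMSO cells. ABCC2, the bile-facing exporter of bilirubin and drug conjugates, was the exception among exporters. It was the most abundant member, with implied levels of 14960 normalized counts in isoginkgetin cells and 13481 in DMSO cells. Its log2 fold change of 0.15 (SE 0.05, adjusted p 0.00509) was among the smallest in the authors' deposited table, where no value lies closer to 0 than 0.117. Subtracting the table's median of called genes turned it negative by construction. The 95% interval of its ratio was 1.04 to 1.18. The blood-facing ABCC3 and the bile-facing ABCC2, which share many conjugated substrates, therefore differed by −1.25 in log2 fold change (SE 0.10, with errors taken as independent).

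Of the bile salt and phospholipid transporters, ABCB4 is in the authors' deposited table and the bile salt export pump ABCB11 is not. ABCB4, which moves phosphatidylcholine into bile, had the lowest log2 fold change of the whole family, −1.22 (SE 0.19, adjusted p 1.07e-10, mean normalized count 300.6) according to the authors' deposited table. Its implied level was 177.1 normalized counts in isoginkgetin cells and 424.1 in DMSO cells, a ratio of 0.418 with a 95% interval of 0.324 to 0.538. ABCB4 lies beside ABCB1, and the pair differed by −0.55 in log2 fold change (SE 0.20, errors taken as independent).

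Lipid and sterol transporters were lower in 4 cases and higher in 1, with 11 of 16 listed genes outside the authors' deposited table. ABCA2, an endosomal and lysosomal lipid transporter, had implied levels of 608.4 normalized counts in isoginkgetin cells and 1377 in DMSO cells and stood at −1.16 on the log2 scale (SE 0.11, adjusted p 3.35e-25) according to the authors' deposited table. ABCA7, a phospholipid transporter, was at −0.84 (SE 0.10) according to the authors' deposited table. ABCA1, which loads cellular cholesterol onto apolipoprotein A-I, was higher at 0.24 (SE 0.08, adjusted p 0.0110) according to the authors' deposited table, with implied levels of 2204 in isoginkgetin cells and 1858 in DMSO cells. That small increase came to 0.03 once the table's median of called genes was subtracted. ABCG1, which passes cholesterol to more mature lipoprotein particles, is not in the table, and neither are ABCG4, ABCA3, ABCA4, ABCA5, ABCA6, ABCA8, ABCA9, ABCA10, ABCA12 and ABCA13.

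ABCG5 and ABCG8 encode the partner subunits of the sterol exporter that secretes cholesterol and plant sterols into bile, and they were lower by similar amounts. ABCG8 was at −1.11 (SE 0.22, adjusted p 5.56e-07, mean normalized count 221.6) and ABCG5 at −1.08 (SE 0.15, adjusted p 2.89e-12, mean normalized count 477.8) according to the authors' deposited table. Implied levels of ABCG5 were 303.5 normalized counts in isoginkgetin cells and 652.0 in DMSO cells, and those of ABCG8 were 136.4 in isoginkgetin cells and 306.9 in DMSO cells. Their log2 fold changes differed by −0.04 (ABCG8 minus ABCG5, SE 0.27), less than the error of the difference. In RefSeq on GRCh38.p14 these genes are read in opposite directions from starts separated by 131 bases, chr2:43838840-43838970. That stretch is shown because both genes share it; it is read on the plus strand, from the ABCG5 start towards the ABCG8 start, with the letters of a GATA motif (AGATAA, on either strand) in capitals:
ABCG5-ABCG8: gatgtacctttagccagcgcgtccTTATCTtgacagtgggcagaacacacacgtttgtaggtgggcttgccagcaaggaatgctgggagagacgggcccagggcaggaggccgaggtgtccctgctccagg
A second match covers the first bases of ABCG5. This motif is in 3 of the 15 coding members with a promoter window, the third being ABCB1. ABCG5 and ABCG8 hold the same matches, so they are not separate cases. Counted per gene in the same way, the motif is in 12.4% of the 27305 genes with a promoter window in the RefSeq set. Windows run from 250 bases before to 50 after each start, and a gene with several starts has several windows. A match is a description of the letters and no evidence of binding.

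Peroxisomal and mitochondrial transporters described here were also lower. ABCD3, which carries branched chain acyl-CoA and bile acid intermediates into peroxisomes, was at −0.34 (SE 0.07, adjusted p 4.19e-06) according to the authors' deposited table, at implied levels of 2412 normalized counts in isoginkgetin cells and 3072 in DMSO cells. This was the smallest decrease among the transporters named here. ABCD2 and the lysosomal ABCD4, involved in cobalamin handling, are not in the table. ABCB8, a transporter of the inner mitochondrial membrane, was at −0.66 (SE 0.11, adjusted p 1.50e-08, mean normalized count 854.8) according to the authors' deposited table. ABCB6, ABCB9 and ABCB10 are outside it, as are both channel regulators, ABCC8 and ABCC9.

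The ABCE and ABCF genes moved the other way from most transporters. ABCF1, which takes part in translation initiation with eIF2, had implied levels of 7150 normalized counts in isoginkgetin cells and 4339 in DMSO cells, and stood at 0.72 on the log2 scale (adjusted p 3.74e-34, SE 0.06) according to the authors' deposited table. ABCF2 was at 0.74 (SE 0.16, adjusted p 5.34e-06), with a lower mean normalized count of 410.4, and ABCF3 at 0.54 (SE 0.10, adjusted p 8.00e-08, mean normalized count 1255) according to the authors' deposited table. ABCF1 and ABCF2 differed by −0.03 in log2 fold change (SE 0.17). ABCE1, which splits ribosomes into subunits after termination, was higher by less, at 0.26 (SE 0.07, adjusted p 0.000918) according to the authors' deposited table, with implied levels of 3608 in isoginkgetin cells and 2997 in DMSO cells. All 4 passed an adjusted p under 0.001. Subtracting the table's median of 0.21, which is of called genes only, left 0.05 for ABCE1.

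The 250 bases before the start of each of these 4 genes, from RefSeq on GRCh38.p14, are shown because these members moved together. Capitals mark 1 motif per gene, searched on both strands. These are an E-box (CACGTG) in ABCF1, a CCAAT box (CCAAT) in ABCF2, GC boxes (GGGCGG) in ABCF3 and a cAMP response element (TGACGTCA) in ABCE1. Other matches are left in small letters, among them GC boxes in ABCF1 and ABCF2 and the letters GCGTG in all 4. The regions are chr6:30571192-30571441 on the plus strand for ABCF1, chr7:151227206-151227455 on the minus strand for ABCF2, chr3:184185949-184186198 on the plus strand for ABCF3 and chr4:145098061-145098310 on the plus strand for ABCE1:
ABCF1: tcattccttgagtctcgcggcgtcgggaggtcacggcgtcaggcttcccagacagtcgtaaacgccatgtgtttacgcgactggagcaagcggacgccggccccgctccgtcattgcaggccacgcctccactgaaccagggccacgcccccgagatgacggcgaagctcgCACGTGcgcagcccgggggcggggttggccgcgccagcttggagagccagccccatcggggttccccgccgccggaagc
ABCF2: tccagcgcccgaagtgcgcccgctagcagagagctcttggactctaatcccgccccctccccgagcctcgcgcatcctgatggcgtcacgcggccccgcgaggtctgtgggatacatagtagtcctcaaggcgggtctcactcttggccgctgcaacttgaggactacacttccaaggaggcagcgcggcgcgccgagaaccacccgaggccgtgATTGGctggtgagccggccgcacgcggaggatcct
ABCF3: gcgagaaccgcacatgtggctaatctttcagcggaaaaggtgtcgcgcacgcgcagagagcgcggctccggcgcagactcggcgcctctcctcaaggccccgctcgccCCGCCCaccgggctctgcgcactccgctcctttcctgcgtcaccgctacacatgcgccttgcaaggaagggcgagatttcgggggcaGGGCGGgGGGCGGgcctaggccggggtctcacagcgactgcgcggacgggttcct
ABCE1: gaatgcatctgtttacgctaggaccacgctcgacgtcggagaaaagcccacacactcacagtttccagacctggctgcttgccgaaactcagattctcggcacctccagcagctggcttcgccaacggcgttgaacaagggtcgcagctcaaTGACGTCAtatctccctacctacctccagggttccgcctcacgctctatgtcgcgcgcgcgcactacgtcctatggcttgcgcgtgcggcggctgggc
Of the 19 coding members, 15 matched a promoter window, and 3 of these hold the E-box (ABCA1, ABCF1 and ABCG2), 4 the CCAAT box, 9 the GC box and 1, ABCE1, the cAMP response element. Of all 27305 genes with a window, 8.77% hold the E-box in any of their windows, 39.7% the CCAAT box, 48.3% the GC box and 2.25% the cAMP response element. The core of the xenobiotic response element (GCGTG) was in 9 members, namely all 4 ABCE and ABCF genes, ABCA2, ABCA7, ABCB1, ABCD3 and ABCG2. Of all genes, 40.6% hold it. The antioxidant response element (TGACNNNGC) was in 3 members, ABCA2, ABCF1 and ABCG2, and 16.1% of all genes. In the members' windows no match of one of the 7 motifs overlapped a match of another. None of the 7 was held by all 4 ABCE and ABCF genes and by no transporter.

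Levels can be compared between genes per length of transcript. Per kb of the principal GENCODE 29 transcript, the implied level of ABCC2 was the highest of the coding members, with 2577 normalized counts in isoginkgetin cells and 2322 in DMSO cells. ABCF1 came next, with 2054 in isoginkgetin cells and 1246 in DMSO cells. ABCG8 was the lowest of the coding members, with 19.0 in isoginkgetin cells and 42.7 in DMSO cells. That place rests on a principal transcript of 7.19 kb, beside 2.74 kb for ABCG5, and could change with another choice of transcript. In isoginkgetin cells ABCE1 (920.3) stood above ABCC1 (728.0) and ABCD3 (681.7), whereas in DMSO cells ABCC1 (932.7) and ABCD3 (868.3) stood above ABCE1 (764.4). The members' median mean normalized count was 1255, above the 741.4 of the whole authors' deposited table.

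**Figure D2:**
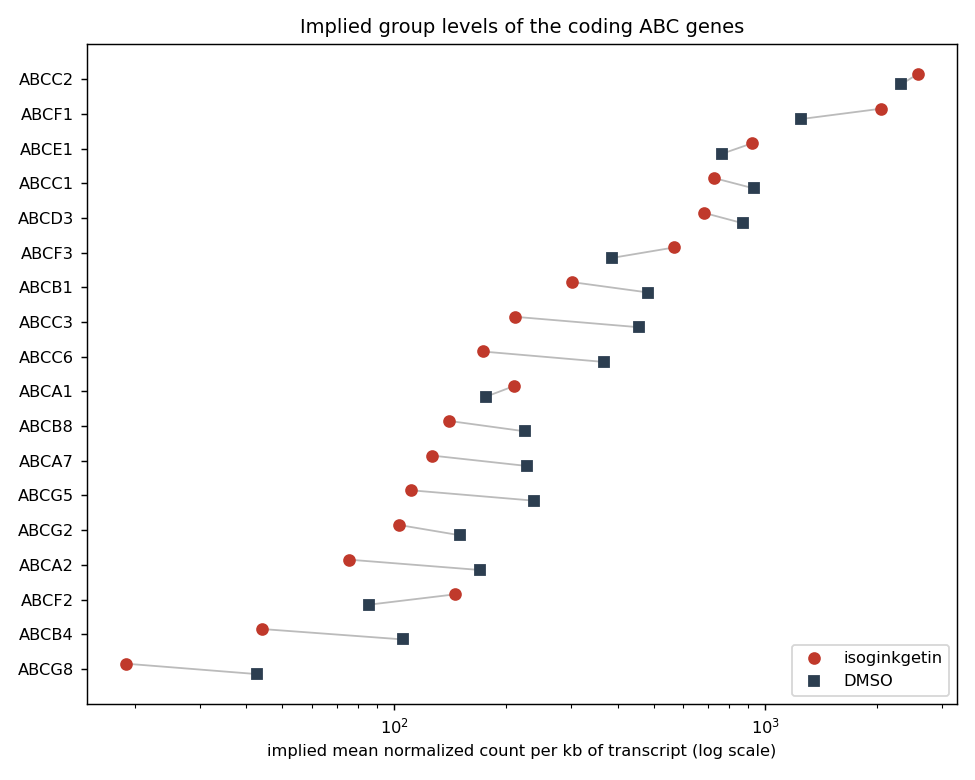
Implied level of the coding ABC genes, 1 of the 19 not plotted, as normalized counts per kb of transcript on a log scale, in isoginkgetin cells (circles) and DMSO cells (squares). The isoginkgetin point lies left of the DMSO point for most transporter genes and right of it for ABCC2, ABCA1 and the 4 ABCE and ABCF genes. The small ABCC2 shift turns round relative to the table's median, which is of called genes only.

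Pseudogenes and overlapping genes make a few values uncertain. ABCC6P1 and ABCC6P2, pseudogenes of ABCC6, were lower at −0.64 (SE 0.15, adjusted p 4.35e-05) and −0.93 (SE 0.34, adjusted p 0.00443) according to the authors' deposited table. Of the windows of 75 bases in the ABCC6 transcript, 11.8% occur without a mismatch in ABCC6P1 and 4.20% in ABCC6P2, and 26.3% of ABCC6P1 windows and 45.1% of ABCC6P2 windows occur in ABCC6. Reads from such stretches match more than 1 of the 3 genes, so these values are uncertain. For ABCF2, 53.1% of windows also lie in AC021097.2, a transcript model that overlaps it, and for ABCE1 17.9% lie in other genes, the overlapping neighbour ANAPC10 first with 8.11%. ANAPC10 was higher too, at 0.96 according to the authors' deposited table. Libraries carried no strand, so reads of overlapping genes cannot be told apart, and how shared reads were counted is not given in the sources used here. Without the 5 members that share 10% or more of their windows, 12 of the remaining transporters were lower, and ABCF1 and ABCF3 were the 2 remaining higher non-transport genes.

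Gene structure moved with direction over the whole table, and the ABC genes have many exons. Protein-coding genes of the table were divided into 4 bins by exons of the principal transcript, of 1635 to 2338 genes each; 60.2% were higher among genes of 1 to 6 exons and 37.7% among genes of 17 or more. Of the 10 transporters with 17 or more exons, 8 were lower and 2 higher, and the 3 non-transport genes in that bin were all higher. Among genes of 11 to 16 exons, where 47.7% of genes were higher, the 4 transporters were all lower and ABCF2 was higher. By genomic span, ABCE1 and the ABCF genes cover 7.99 to 31.2 kb and the transporters 19.4 to 209.7 kb. In 4 bins by span, 59.6% of genes were higher in the shortest bin, then 52.8%, 51.3% and 38.1% in the longest. ABCF3 falls in the shortest bin and ABCE1, ABCF1 and ABCF2 in the second, with ABCA2, ABCA7, ABCB8 and ABCG5. ABCC2, ABCC3, ABCC6 and ABCG8 fall in the third, and ABCA1, ABCB1, ABCB4, ABCC1, ABCD3 and ABCG2 in the longest. The part of exon number and gene length in these values was not tested.

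**Figure D3:**
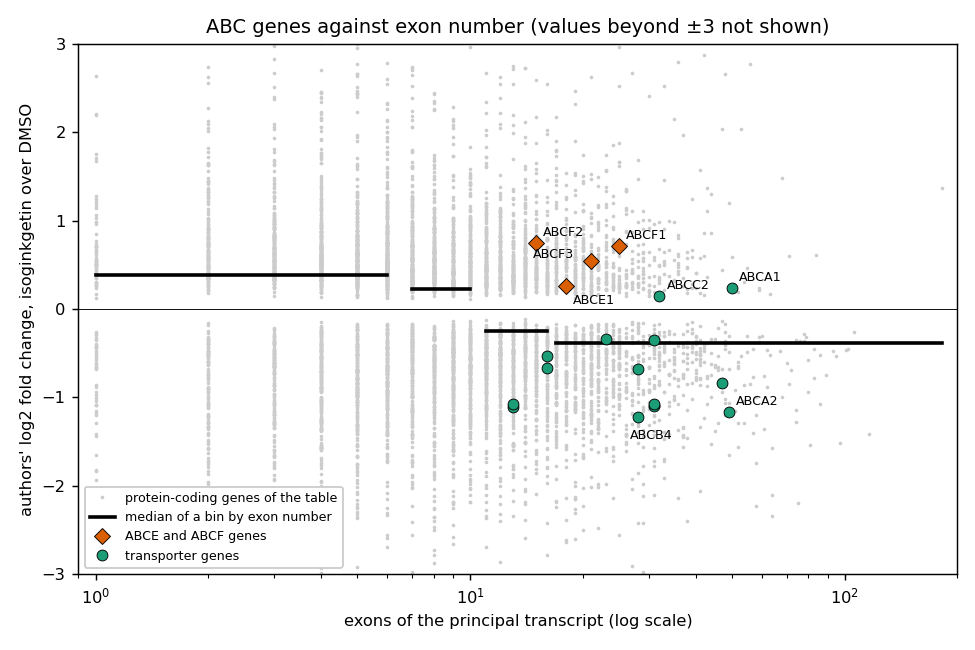
Log2 fold change in the authors' deposited table against exons of the principal transcript (log scale) for protein-coding genes (grey), transporter genes (green circles, 1 not plotted) and ABCE and ABCF genes (orange diamonds), with black bars at the median of each of 4 bins by exon number. Medians run from 0.38 at 1 to 6 exons to −0.39 at 17 or more. The diamonds lie above 0 at 15 to 25 exons, where every circle shown lies below it. The circles above 0 are ABCC2 and ABCA1, at 32 and 50 exons.

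Regulators known to control ABC genes in liver went both ways. Of 15 listed regulators, 3 were higher and 7 lower in the authors' deposited table, with a median of −0.39, and 5 are outside it. Beside this and the partner lists that follow stand 22.4% higher and 21.1% lower over all 20024 tested genes, and a median of 0.21 over the whole table. The lists were not tested against those shares. NR1H4, the bile acid receptor FXR that drives ABCB11 and ABCB4, was at −0.60 (SE 0.12) according to the authors' deposited table. AHR, the aryl hydrocarbon receptor that can induce ABCG2, was at 1.03 (SE 0.09) according to the authors' deposited table. NR1H3 and NR1H2, the sterol receptors that drive ABCA1, ABCG5 and ABCG8, went opposite ways, at −0.46 and 0.53 according to the authors' deposited table.

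Partners of the transporters went both ways. Of 16 listed uptake, bile acid and canalicular genes, 3 were higher and 3 lower. Among them were the organic anion importer SLCO2B1 at −3.10 (SE 0.23) and the bile acid conjugating enzyme BAAT at 1.74 (SE 0.60) according to the authors' deposited table. The mean normalized count of BAAT was low, at 34.0. Sterol efflux partners were higher in 3 cases and lower in 5 of 13 listed. MYLIP, which targets the LDL receptor for degradation, was at 1.79 (SE 0.22), LCAT, which esterifies cholesterol in lipoproteins, at −1.36 (SE 0.22) and the HDL receptor SCARB1 at −1.13 (SE 0.06) according to the authors' deposited table. Peroxisomal and cobalamin partners of ABCD proteins were higher in 3 cases and lower in 7 of 14 listed (median −0.24). There SLC27A2, an acyl-CoA synthetase for very long chains, was at −1.81 (SE 0.26), ACSL1 at 1.53 (SE 0.12) and MMACHC, a cobalamin enzyme, at −1.37 (SE 0.17) according to the authors' deposited table.

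Heme and iron-sulphur genes around the mitochondrial ABCB proteins were higher in 5 cases and lower in 6 of 14 listed. ALAS1, the first enzyme of heme synthesis, was at 1.05 (SE 0.09), PPOX, a late enzyme of that path, at −0.83 (SE 0.20) and SLC25A38, a glycine carrier, at 0.72 (SE 0.11) according to the authors' deposited table. Partners of ABCE1 and the ABCF proteins in ribosome recycling and initiation were higher in 8 cases and lower in 2 of 13 listed names, with a median of 0.21, equal to that of the whole table. PELO, which rescues stalled ribosomes with ABCE1, was at 0.93 (SE 0.10), the eIF2 subunit gene EIF2S1 at 0.68 (SE 0.08) and the kinase gene EIF2AK4 at −0.84 (SE 0.08) according to the authors' deposited table. Of the 3 family members under other symbols, TAP2, a peptide transporter of antigen presentation, was at 0.50 (SE 0.17) according to the authors' deposited table, and TAP1 and CFTR are not in it.

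**Figure D4:**
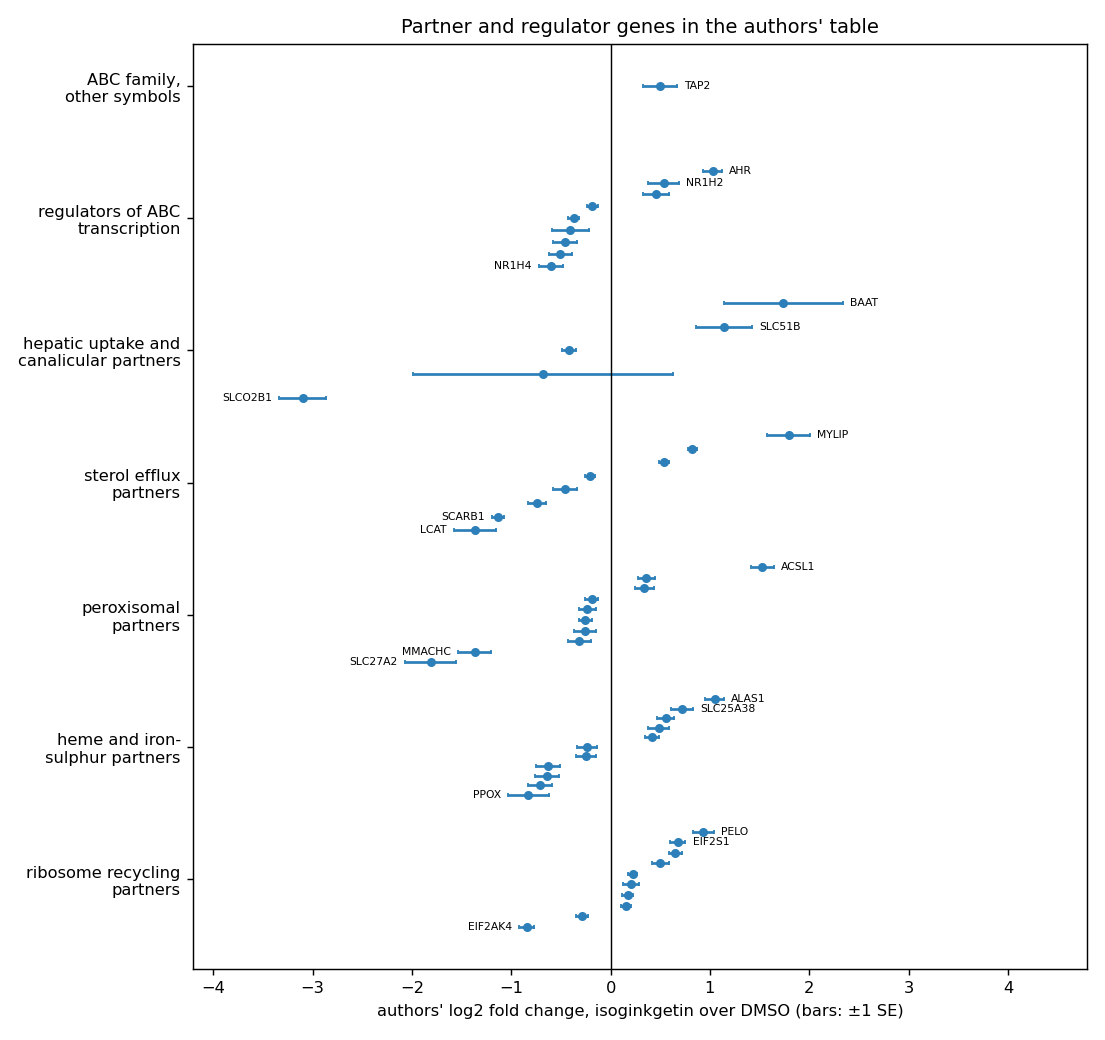
Log2 fold changes, isoginkgetin over DMSO, of the partner and regulator genes in the authors' deposited table, by list, with bars of 1 SE; the largest changes in each list are named, and 2 genes of the lists are not plotted. Points lie on both sides of 0 in every list with more than 1 gene, and SLCO2B1 stands furthest left at −3.10.

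The hepatocyte markers on a short list were lower, while the abundant apolipoprotein genes APOE and APOA2 were higher. Of 10 such markers listed for HepG2, 9 are in the authors' deposited table, all lower with a median of −0.76, among them AFP at −1.04 with a mean normalized count of 31202. Over all tested genes, which are not matched for count, 21.1% were lower. Of the sterol efflux partners, the apolipoprotein genes APOE (0.82, SE 0.05) and APOA2 (0.54, SE 0.05) were higher at mean normalized counts of 27165 and 29758. Those partners were higher in 3 cases and lower in 5, with APOA1, also on the marker list, lower at −0.21 (SE 0.05). Markers of leukocytes, fibroblasts, endothelium and keratinocytes are in the table in 5 of 20 cases, 1 higher and 4 lower. The part of the markers in the ABC values was not tested. Both groups are labelled as the HepG2 line, and bulk RNA does not tell a change in all cells from one in some.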

How the data were processed

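Polyadenylated RNA of HepG2 cells was sequenced in 2 isoginkgetin and 2 DMSO libraries, made with a kit that does not keep strand, per the labels' protocols. STAR 2.7.0 and featureCounts are named as tools, and hg19 and mm10 as builds, in the submitters' processing notes, with no role for either build. Per the file headers, the deposited table is laid out like DESeq2 output. The authors' deposited mean normalized count is a signal averaged over libraries. The authors' deposited log2 fold change and SE are on the log2 scale, and per gene there is a deposited p-value, also given adjusted. Depth per library is unknown. All 8727 genes pass an adjusted p of 0.05, and 20024 tested genes were recovered from adjusted p, rank and p.

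The deposited fold changes behave as shrunken: under a Cauchy prior of scale 0.798 they returned the normal deviate of the p-value within 1% for 92.1% of genes. That prior was undone, and group levels were split from the mean normalized count with the resulting ratio; 95% intervals are 1.96 SE. The step moved coding members by at most 0.06. Its check on simulated data used values shrunken by the same formula. That check covers the arithmetic only, not whether the deposited values were shrunken so.

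Exons, lengths and shared windows came from GENCODE 29 on GRCh38, which held a model for 89.4% of the table's genes, and promoters from RefSeq; the files' own build may differ. A few genes are counted but not reported here; all others among the members in the table are named, with full values for the 4 highest, the 4 lowest and the 2 largest changes per class, and the 3 largest per partner list. Motifs, the neighbouring pairs, NR1H2, NR1H3, ANAPC10, AFP, APOE and APOA2 were chosen after values were seen. Members and lists were chosen with earlier results of these data known. No list was tested. Tests needing values per library were not run. Python 3.11.15 and scipy 1.17.1 were used.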

Additional observations from a re-analysis of the deposited data

How the results depend on the processing

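The count of ABC genes lower (15) and of transporters lower (13) stayed within 1.5 times under every alternative run. The count of ABC genes higher, 6, was 3 with Bonferroni adjustment and 2 at a change of at least 1.5-fold, also with shrinkage undone. Higher ABCE and ABCF genes, 4, were 2 at 1.5-fold with or without shrinkage undone, and 2 without members that share transcript windows, which by construction leaves out ABCE1 and ABCF2. At an adjusted p under 0.001, 18 of 21 members and 40 of 56 partner and regulator entries were left, and with a floor of 100 on the mean normalized count, 21 and 53. Centred on the table's median of 0.21, the members' median was −0.88, against −0.66 as reported, and ABCC2 turned to −0.064, as the centring itself brings about. That median is of listed genes only, since genes outside the table give no value. Undoing the shrinkage and leaving out members with shared windows were chosen after seeing the data. A normal prior was not undone, because the prior variance it implied was not constant, with a median of 2.25 for genes below a mean normalized count of 30 and of 0.30 for genes from 1000 up. No paired analysis was possible because the table holds no values per library. For the same reason no replicate was left out and no other normalization or count model was run.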
